A study of Arabidopsis thaliana with 18 samples.

Results

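Calmodulins and calmodulin-related proteins are represented here by the probe sets whose description names calmodulin or calcium binding, in any case of letters, together with the probe set assigned to IQD19. The rule found 98 of the 22746 probe sets that are not array controls. Of these, 76 had a Present call on each array of 1 group or more and entered the tests, and 22 did not. By their descriptions the tested members are 6 calmodulins, 20 calmodulin-like proteins, 18 calmodulin-binding proteins, 7 ion channels regulated by cyclic nucleotides and calmodulin, 4 calcium ATPases, 7 protein kinases and 14 other calcium-binding proteins. The platform's annotation assigns 1 gene to 49 of the 98 members, and the other 49 are named from their description or printed by probe set. IQD19 is the only member that entered by name, since its probe set is described as a hypothetical protein. No measured value entered the rule, but IQD19 was named in it with earlier results of these data known.

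Calmodulin is a small protein that binds calcium ions through paired loops called EF hands, changes shape, and then binds and regulates other proteins. Plants have several nearly identical calmodulins and a larger family of calmodulin-like proteins (CML), which share the EF hands and are more varied in sequence. Heat, salt, cold and touch each raise free calcium in the plant cytosol for a short time, and these proteins are among those that read the signal. Calcium ATPases pump calcium out of the cytosol, and calcium-dependent protein kinases carry a calmodulin-like domain of their own. IQD proteins bind calmodulin through IQ motifs.

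Transcripts were measured on 18 one-colour Affymetrix arrays of whole Arabidopsis thaliana seedlings, 7 days old, grown at 22 °C on MS medium at a strength of 0.5 with 1% sucrose. The genotypes were wild type Col-0 (WT), an overexpressor of HSFA6b, a heat shock transcription factor (HSFA6b-OE, called OE), and plants with a dominant-negative form of that factor (HSFA6b-RD, called RD). Seedlings of every genotype stayed at 22 °C as a control, were heat-shocked (37 °C, 1 h) or received NaCl (150 mM, 6 h), with 2 biological replicates in each of the 9 groups. The promoter that drives each transgene and the number of independent lines are not given in the sources used here. HSFA6b itself was not analysed here, because no probe set was assigned to it. In whole seedlings, fewer cells of a type and less RNA per cell cannot be told apart.

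Signals are MAS5 intensities, scaled by the authors to a trimmed mean of about 500 on every array, which leaves out the lowest and highest signals. Arrays are named by group and replicate, such as WT heat 1. Present calls per array covered 63.3% to 73.6% of probe sets. Arrays of a group correlated at 0.916 to 0.973 across tested probe sets, which are not independent replicates. File names place WT heat 1, WT NaCl 1 and OE NaCl 1 in a second array series and all other arrays in a first. No control array belongs to the second series, so only the first gives a within-series difference from control. HSP101, a heat-induced chaperone, had a mean signal of 46.7 in WT control, 40604 in WT heat and 16476 in WT NaCl. DREB2A, a stress-induced transcription factor, had 176.9, 11944 and 15269 in the same groups. Among cell type markers, 4 of 7 for root, 3 of 4 for vasculature, both for guard cells and 1 of 3 for epidermis were found by name. Of the 7 leaf markers none was matched by name, so leaf tissue was not checked.

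**Figure D1:**
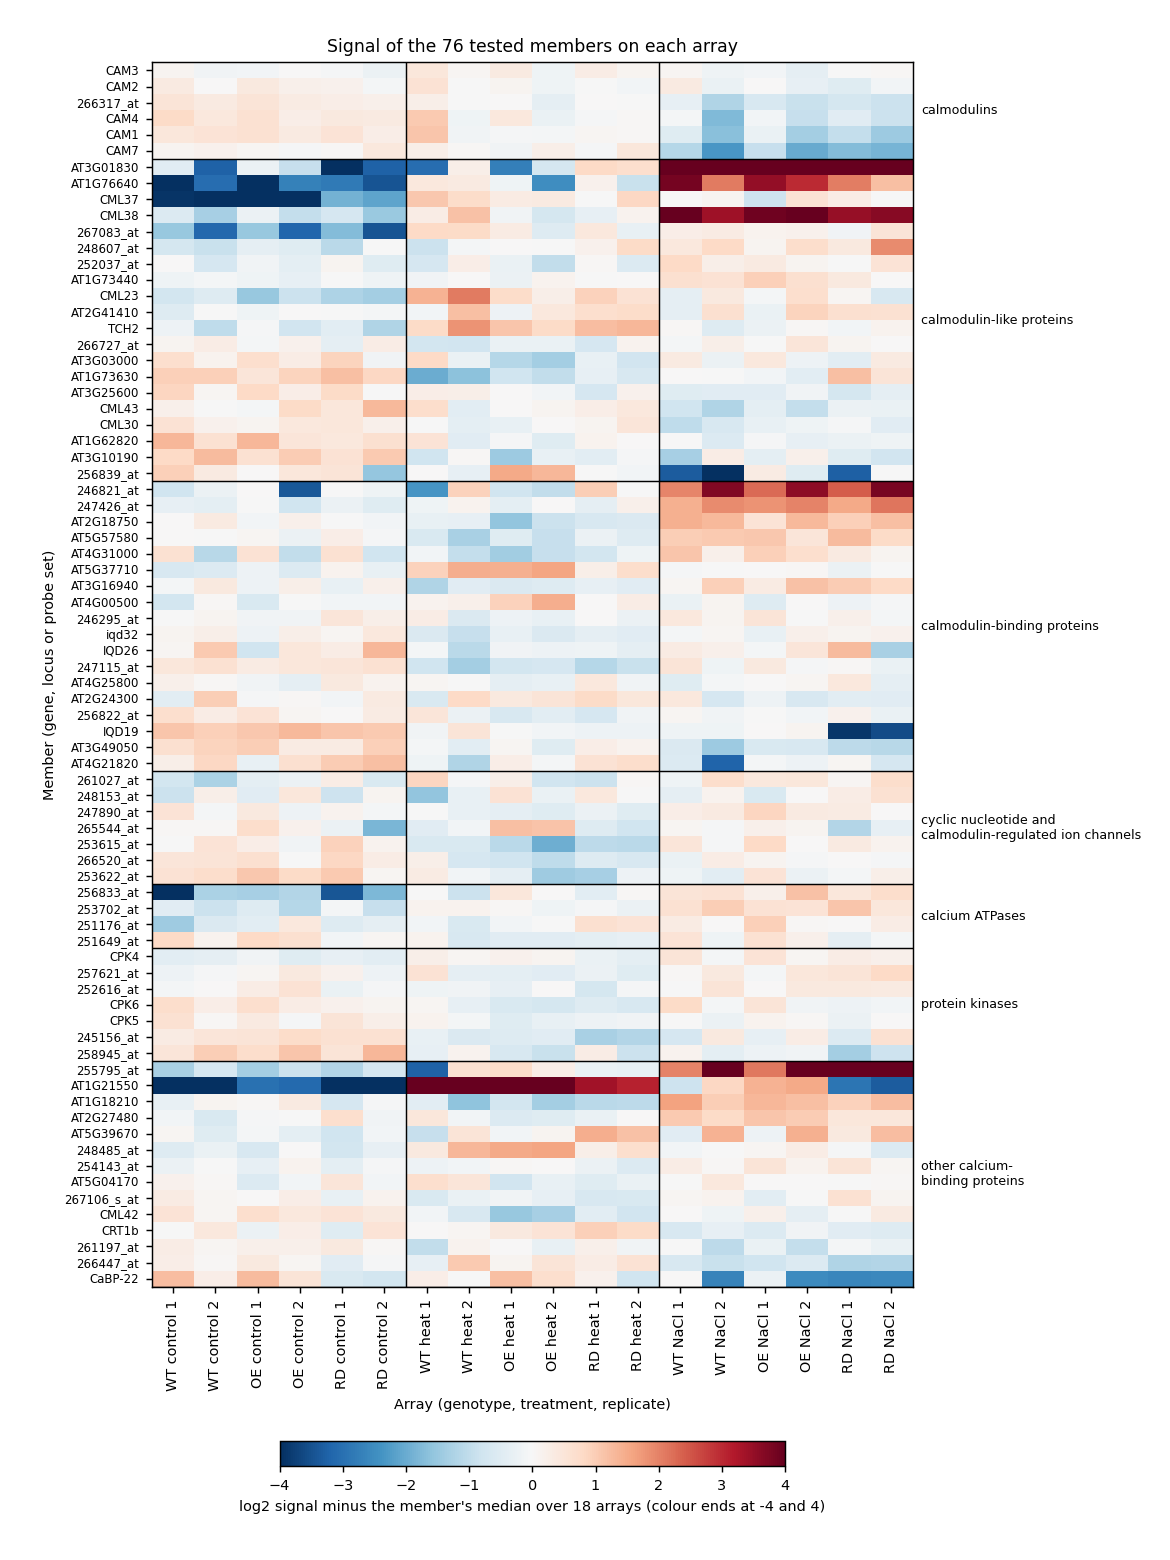
Log2 signal of each of the 76 tested members (vertical axis, grouped by role and ordered by the WT difference with NaCl) on each of the 18 arrays (horizontal axis), as the difference from the member's median over all arrays. Colour ends at 4 log2 units on either side, and the strongest colours include those of AT1G21550, AT3G01830, AT1G76640, CML37, CML38, 255795_at and 246821_at.

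Of the 76 tested members 54 were Present on all 18 arrays. The 22 members that were not tested never rose above a signal of 131.5, and the median of their median signals was 9.5. They include 12 calmodulin-like proteins, CML41 among them, and 1 calmodulin, 245257_at, whose highest signal was 31. At least 1 of the 6 differences from control passed the test for 48 of the 76 members (63.2%), against 56.2% of all 17379 tested probe sets.

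Heat shock against control in WT asks which of these transcripts respond within 1 h at 37 °C. The largest change among the members was in AT1G21550, described as similar to a calcium-binding protein of Lotus japonicus, which went from no Present call in the control to a bright signal. CML37, CML23 and TCH2, which are calmodulin-like proteins, also rose, as did 267083_at, another calmodulin-like protein. AT1G73630, a putative calmodulin with EF hands that is counted here as calmodulin-like, fell most. None of the 6 members counted as calmodulins changed by the test. Differences were tested with limma on log2 signals over all 18 arrays, with Benjamini-Hochberg adjustment over all tested probe sets and a threshold of 0.05. Of the 76 members 16 passed (21.1%), close to the 20% of all tested probe sets. Higher were 10 members, against a background of 6.7%, and lower were 6, against 13.3%. The median log2 difference of the members was -0.19, and that of all tested probe sets was -0.29. After quantile normalization, which moved the median of all tested probe sets to -0.13, 12 members were higher and 2 lower. The falls of 266727_at, iqd32, AT3G49050 and AT5G57580 did not pass there (adjusted p = 0.168, 0.103, 0.177 and 0.15). A block for the array series gave 12 higher and 13 lower, or 25 members, with 266727_at lost (adjusted p = 0.0565). Leaving out 1 array gave 8 to 19.

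AT1G21550 had signals of 12.2 and 20.7 in WT control, neither called Present, and of 8913 and 15781 in WT heat. The heat arrays lie far above the control arrays. The log2 difference was 9.54 (SE 0.45, adjusted p = 4.9e-09). Because the control was not called Present, the rise is given as at least 746-fold, taken against the dimmest Present signal of each control array where the measured signal is lower than that. CML37 had 5.7 and 1.7 in WT control, again without a Present call, and 182.9 and 142.9 in WT heat. Its groups do not overlap, and it was at least 20.3-fold higher (log2 difference 5.70, SE 0.59, adjusted p = 1.48e-05).

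By the roles used here, which were assigned after values were seen, 6 of the 20 tested calmodulin-like proteins were higher, 2 were lower and 12 did not pass. With an earlier, coarser grouping of the descriptions, 3 of 9 calmodulin-like proteins rose and none fell. In its calmodulin group, which also holds kinases, channels and ATPases, 4 of 34 rose and 2 fell. The probe set 267083_at, identical to a calmodulin-like protein in its description, had signals of 3915 and 1284 in WT control and of 19704 and 19194 in WT heat. Its rise was 8.67-fold (log2 difference 3.12, SE 0.62, adjusted p = 0.00331), with control arrays that differ from each other by more than the heat arrays do. CML23 had 80.0 and 94.1 in control and 353.4 and 568.5 with heat, a rise of 5.17-fold (log2 difference 2.37, SE 0.39, adjusted p = 0.000863). TCH2, a gene first known for its induction by touch, had 459.5 and 263.3 in control and 896.7 and 1850 with heat, a rise of 3.7-fold (adjusted p = 0.00418). In each of these 3 members both heat arrays lie above both control arrays.

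CML38 and AT1G76640 also passed with heat. CML38 had 72.8 and 42.1 in WT control and 130.4 and 240.2 in WT heat (log2 difference 1.68, SE 0.43, adjusted p = 0.0142). AT1G76640, a putative calmodulin with EF hands, went from 1.8 and 3.7 to 41.3 and 39.0 (adjusted p = 0.00928), but no array of either group was called Present and no fold is given. On the other side, AT1G73630 had 375.8 and 381.9 in WT control and 49.0 and 62.2 in WT heat, where it was no longer called Present. It was at least 6.86-fold lower (log2 difference -2.78, SE 0.28, adjusted p = 1.06e-05), and its replicates lie close together in both groups. The putative calmodulin 266727_at was 1.93-fold lower (adjusted p = 0.0369).

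Among calmodulin-binding proteins 1 of 18 rose and 4 fell. AT5G37710, described as like a calmodulin-binding heat-shock protein of tobacco, had 219.1 and 230.6 in WT control and 638.6 and 924.4 in WT heat, a rise of 3.42-fold (log2 difference 1.77, SE 0.25, adjusted p = 0.000239). AT3G49050, with a description of the same kind, fell 2.05-fold (adjusted p = 0.0487), and AT4G00500, also described as a calmodulin-binding heat shock protein, had 174.4 and 299.4 in control and 324.5 and 335.6 with heat and did not pass. Of these 3 described heat-shock proteins, AT5G37710 was the only 1 that rose by the test in WT. The kinesin-like calmodulin-binding protein 247115_at, a motor protein, fell 3.04-fold from 359.7 and 398.8 to 152.1 and 102.0 (adjusted p = 0.00128). The IQ-motif protein iqd32 and AT5G57580 fell 1.91-fold and 1.94-fold (adjusted p = 0.0161 and 0.0361).

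Of the other groups, 1 of 4 calcium ATPases and 2 of 14 other calcium-binding proteins rose. The ATPase 256833_at had 3.9 and 45.7 in WT control, neither called Present, and 108.1 and 61.4 in WT heat, of which 1 was called Present (adjusted p = 0.0407). The calcium-binding transporter-like 248485_at went from 179.2 and 214.4 to 334.6 and 640.0, a rise of 2.36-fold (adjusted p = 0.0166). None of the 7 protein kinases and none of the 7 ion channels passed in WT, by limma's adjusted p.

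In this comparison 6 calls held when any 1 array was left out, those of AT1G21550, CML37, CML23, AT5G37710, AT1G73630 and 247115_at, with an adjusted p of at most 0.0179. Without WT control 2, 267083_at reached 0.0549 and TCH2 0.0624, and without WT control 1, AT1G76640 reached 0.0754. CML38 was lost without WT control 2 or WT heat 2 (highest adjusted p = 0.144), and 256833_at on leaving out WT control 1 or either WT heat array (highest 0.417). Leaving out either WT control array or WT heat 2 ended the calls of iqd32, 248485_at and AT5G57580 (highest 0.108, 0.156 and 0.246), and 266727_at and AT3G49050 were lost without any 1 of the 4 arrays (highest 0.181 and 0.231).

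**Figure D2:**
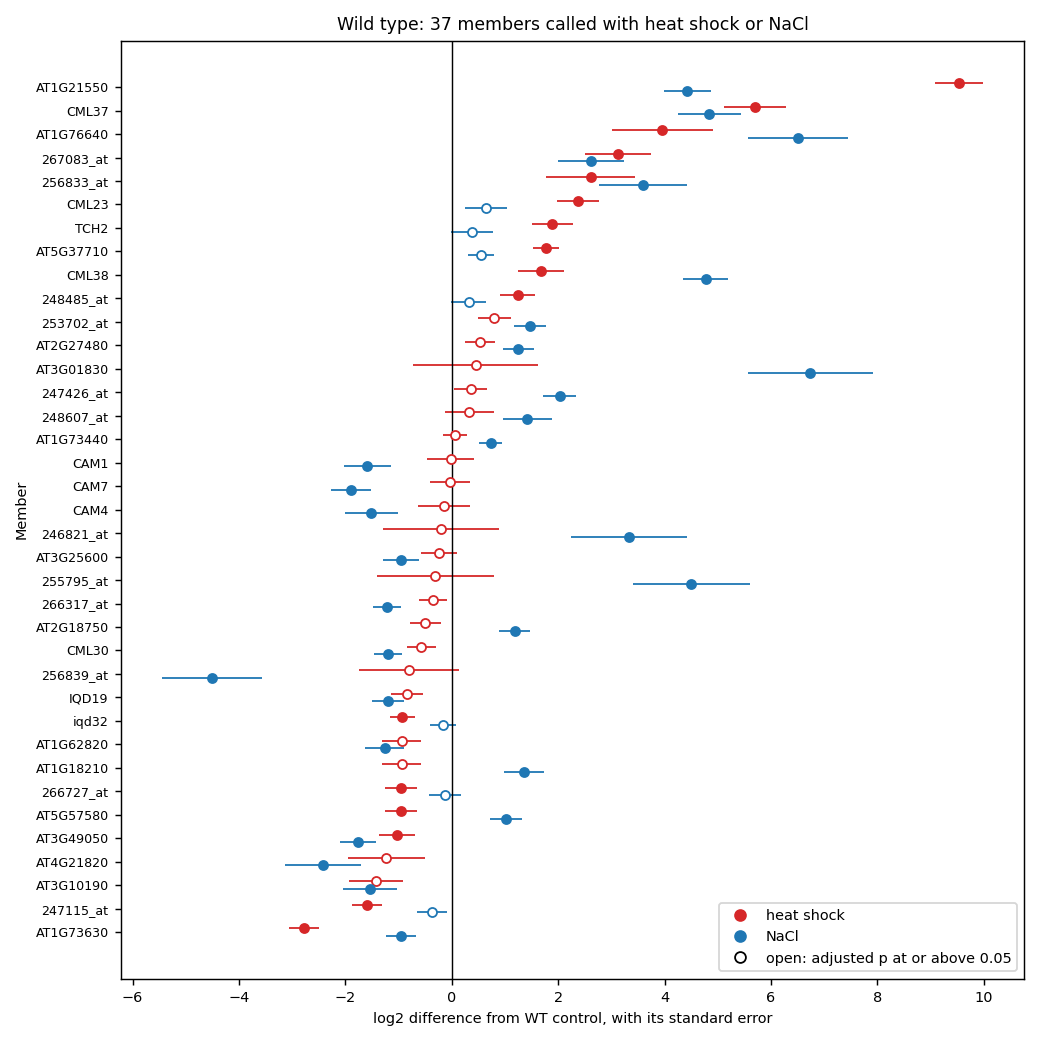
Log2 difference from WT control, with its standard error (horizontal axis), for the 37 members (vertical axis) called in WT with heat shock (red) or NaCl (blue). Filled points passed an adjusted p of 0.05. AT1G21550 lies farthest right with heat shock at 9.54, and AT3G01830 with NaCl at 6.74.

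NaCl against control in WT asks which members respond over 6 h of salt. Calmodulin-like proteins moved in both directions, and 4 of the 6 calmodulins fell. The members that rose most were the calmodulin-like AT3G01830, AT1G76640, CML37 and CML38, the EF-hand protein 255795_at, and AT1G21550. In all 30 of 76 members passed (39.5%), against 30.3% of all tested probe sets. Higher were 17 members, against a background of 12%, and lower were 13, against 18.3%. The median log2 difference was -0.03 over members and -0.19 over all tested probe sets. After quantile normalization, which moved the latter to -0.08, AT3G10190, AT3G25600 and IQD19 no longer passed (adjusted p = 0.0859, 0.0952 and 0.051). AT3G10190 and AT3G25600 were also lost with a block for the array series (0.0687 and 0.0651). Leaving out 1 array gave 13 to 29 members. The summed signal of the 4 root markers found (SHR, EXPA7, EXPA18 and WER) was 504.7 to 730.7 in WT control and 43.1 to 155.9 in WT NaCl. It was also lower with NaCl in OE (120.3 to 149.8, against 720.6 to 720.9) and RD (63.5 to 112.6, against 481.3 to 628.5). None of the 4 was Present on all 18 arrays. The part of root tissue in the NaCl results was not tested.

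Calmodulins, the most conserved calcium sensors of the set, are taken first. CAM7 had signals of 1496 and 1554 in WT control and of 621.6 and 272.0 in WT NaCl, a fall of 3.71-fold (log2 difference -1.89, SE 0.38, adjusted p = 0.00257). CAM1 had 2276 and 2424 in control and 1171 and 517.5 with NaCl (3.02-fold lower, adjusted p = 0.0148). In both, the NaCl arrays lie below the control arrays, and WT NaCl 1, the array of the second series, lies between. CAM4 had 2350 and 1854 in control and 1312 and 411.9 with NaCl (2.84-fold lower, adjusted p = 0.0321). The probe set 266317_at, described as calmodulin with a CAM2 cDNA in its support, had 1349 and 1206 in control and 746.3 and 402.9 with NaCl (2.33-fold lower, adjusted p = 0.00403). Both NaCl arrays lie below both control arrays in each of these 4.

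CAM2 and CAM3 did not pass. CAM2 had 1219 and 960.0 in WT control and 1218 and 789.3 in WT NaCl (log2 difference -0.14, SE 0.28), and CAM3 had 3616 and 3035 against 3542 and 2968 (log2 difference -0.03, SE 0.23). In both the NaCl and control arrays overlap. The probe sets 266317_at and CAM2 both name CAM2 in their descriptions, and the difference between their responses was not tested. Calmodulin genes are near copies of each other, and probes for them may bind the transcripts of more than 1, so each value is that of a probe set. The first array series holds 1 WT NaCl array, WT NaCl 2, and there the log2 differences were -2.49 for CAM7, -2.18 for CAM1 and -2.34 for CAM4. They have no replicate of their own. CAM7 held without any 1 array. CAM1 and CAM4 were lost without WT control 1, WT control 2 or WT NaCl 2 (highest adjusted p = 0.176 and 0.372), and 266317_at without WT NaCl 2 (0.0554).

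**Figure D3:**
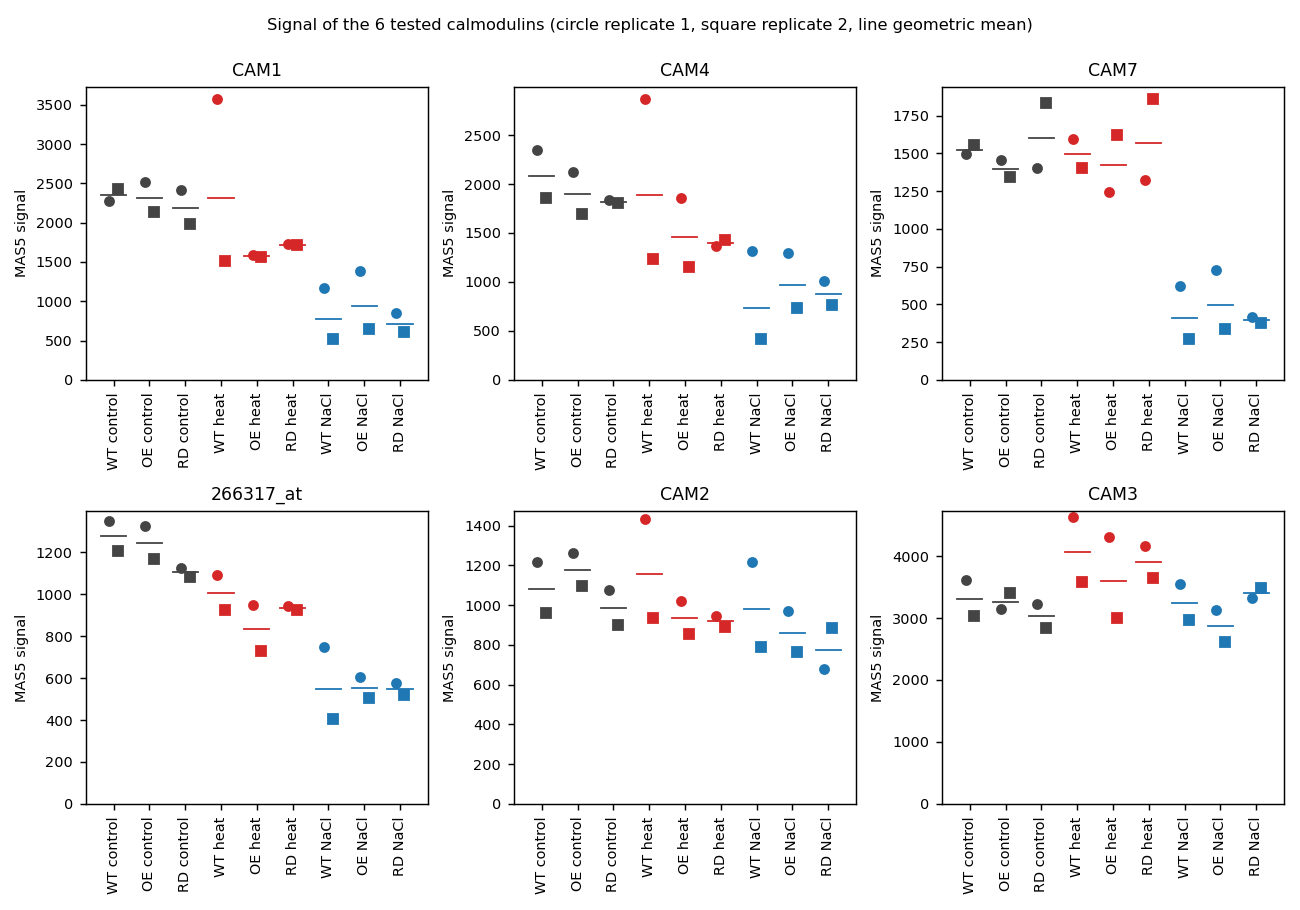
MAS5 signal (vertical axes, from 0) of the 6 tested calmodulins on each array, by genotype and treatment (horizontal axes), with circles for replicate 1, squares for replicate 2 and lines for geometric means. CAM7, CAM1, CAM4 and 266317_at lie lowest with NaCl, and CAM2 and CAM3 show no such drop.

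The calmodulin-like proteins held 7 rises and 6 falls among 20 tested. With the earlier, coarser grouping, 3 of 9 calmodulin-like proteins rose and 2 fell with NaCl. In its calmodulin group 6 of 34 rose and 8 fell. AT3G01830, similar to a calmodulin-like protein and with EF hands, had 4.8 and 0.7 in WT control without a Present call and 224.5 and 171.4 in WT NaCl, at least 24.7-fold higher (log2 difference 6.74, SE 1.17, adjusted p = 0.000964). AT1G76640 had 1.8 and 3.7 in control and 429.6 and 128.0 with NaCl, at least 29.5-fold higher (adjusted p = 0.000264). CML38 had 72.8 and 42.1 in control and 2075 and 1102 with NaCl, 27.3-fold higher (log2 difference 4.77, SE 0.43, adjusted p = 6.01e-06). These 3 were far higher with NaCl than on any control array of WT. CML37 reached 86.1 and 92.0 with NaCl, at least 11.2-fold above control (adjusted p = 7.7e-05), and 267083_at reached 13553 and 14014, or 6.15-fold (adjusted p = 0.00691). The probe set 248607_at, described as a NaCl-inducible calcium-binding protein, had 782.8 and 673.9 in control and 1707 and 2214 with NaCl (2.68-fold, adjusted p = 0.0306). AT1G73440 rose 1.66-fold (adjusted p = 0.0231).

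Among the calmodulin-like proteins that fell, CML30 had 353.8 and 270.8 in WT control and 118.8 and 153.5 in WT NaCl, 2.29-fold lower (adjusted p = 0.00473). AT1G62820 was 2.4-fold lower, and AT1G73630 and AT3G25600 were each 1.94-fold lower (adjusted p = 0.0196, 0.0196 and 0.0491). AT3G10190, whose NaCl arrays were not called Present, was at least 2.9-fold lower (adjusted p = 0.0362). The putative calmodulin 256839_at went from 47.9 and 32.0, of which 1 was called Present, to 2.5 and 1.2, at least 4.87-fold lower (log2 difference -4.50, SE 0.94, adjusted p = 0.00315), so its change rests on dim values. TCH2 and CML23, which rose with heat, had log2 differences of 0.38 and 0.64 with NaCl and did not pass.

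Among other calcium-binding proteins 4 of 14 rose and none fell. The EF-hand protein 255795_at had 168.2 and 260.2 in WT control and 1653 and 13567 in WT NaCl, 22.6-fold higher (log2 difference 4.50, SE 1.10, adjusted p = 0.00786). Its NaCl replicates differ widely, with the array of the second series far lower. Within the first series the log2 difference was 6.02, a value that rests on WT NaCl 2 alone. AT1G21550 went from 12.2 and 20.7 to 193.0 and 610.7, at least 21.6-fold higher (log2 difference 4.43, SE 0.45, adjusted p = 1.53e-05), a smaller rise than with heat. AT1G18210 and AT2G27480 rose 2.57-fold and 2.38-fold (adjusted p = 0.0136 and 0.00607).

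Calmodulin-binding proteins held 4 rises and 3 falls among 18. The probe set 247426_at, similar to a calmodulin-binding protein, had 655.2 and 630.7 in WT control and 2239 and 3065 in WT NaCl, 4.08-fold higher (log2 difference 2.03, SE 0.31, adjusted p = 0.000418). A protein like the tobacco calmodulin-binding TCB60, 246821_at, went from 21.1 and 30.9 to 139.8 and 468.6, at least 10-fold higher (adjusted p = 0.0332). AT2G18750 and AT5G57580, both calmodulin-binding proteins, rose 2.26-fold and 2.03-fold (adjusted p = 0.00875 and 0.0197), and AT5G57580 had fallen with heat. AT3G49050 fell 3.42-fold (adjusted p = 0.00204), AT4G21820 fell at least 3.61-fold without a Present call in WT NaCl (adjusted p = 0.0214), and IQD19 fell 2.3-fold (adjusted p = 0.00918). Of the 4 calcium ATPases, 253702_at rose 2.77-fold from 1147 and 865.0 to 2429 and 3137 (adjusted p = 0.00345), and 256833_at rose at least 8.52-fold (adjusted p = 0.00586). No ion channel and no protein kinase passed.

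Of these 30 calls 10 held without any 1 array (AT1G21550, AT1G76640, CML38, AT3G01830, CML37, 256839_at, 253702_at, CAM7, AT3G49050 and 247426_at), with an adjusted p of at most 0.0439. Without WT control 1, AT2G18750 reached 0.075, CML30 0.0514 and 256833_at 0.0547, and without WT control 2, 267083_at reached 0.0951 and AT2G27480 0.0717. Lost without WT control 1 or WT NaCl 2 were 255795_at, AT1G62820 and IQD19 (highest adjusted p = 0.108, 0.169 and 0.062), and without WT control 1 or WT NaCl 1 AT1G18210 (0.0978). AT1G73630, AT4G21820, 248607_at, AT5G57580 and 246821_at were lost without WT control 1, WT control 2 or WT NaCl 2 (highest 0.0932, 0.276, 0.165, 0.0952 and 0.235). AT3G10190 was lost without WT control 1, WT control 2 or WT NaCl 1 (0.292), AT3G25600 without WT control 1, WT NaCl 1 or WT NaCl 2 (0.344), and AT1G73440 without any 1 of the 4 (0.114).

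Both WT comparisons use the same control arrays, so heat shock and NaCl were also compared directly. WT heat against WT NaCl gave 10 members higher with heat and 13 higher with NaCl, 30.3% of members against 28.1% of all tested probe sets. The backgrounds were 11.7% and 16.4% in the same order. The treatments also differ in length, 1 h and 6 h. Higher with heat by the largest differences were AT1G21550 at 34.5-fold (log2 difference 5.11, SE 0.45, adjusted p = 4.5e-06), CAM7 at 3.64-fold (adjusted p = 0.00282), CML23 at 3.31-fold (adjusted p = 0.00543) and 256839_at, which was not called Present in either group. TCH2 and AT5G37710 were 2.85-fold and 2.33-fold higher with heat (adjusted p = 0.0114 and 0.00284).

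Higher with NaCl were AT3G01830, by at least 22.3-fold (adjusted p = 0.00143), 255795_at by 28.1-fold (adjusted p = 0.00553), 246821_at by 11.6-fold (adjusted p = 0.0269) and CML38 by 8.55-fold (adjusted p = 0.000178). Of the calmodulin-binding proteins, 7 of 18 were higher with NaCl than with heat and 1 was higher with heat. Of the 6 calmodulins, 3 were higher with heat. AT1G21550, AT1G73630, AT5G37710, CML38, AT3G01830 and CAM7 passed without any 1 array. CML23 was lost without WT heat 2 (adjusted p = 0.0518), 256839_at without WT NaCl 2 (0.0737), TCH2 without WT heat 2 or WT NaCl 2 (highest 0.114), and 255795_at and 246821_at without WT heat 1 or WT NaCl 2 (highest 0.071 and 0.237).

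In the transgenic lines treatment was again compared with the untreated seedlings of the same line. OE heat gave 8 members higher and 15 lower, against backgrounds of 6.44% and 12.3%. The summed root markers were 325.8 to 403.1 in OE heat, below the 720.6 to 720.9 of OE control. Those of WT heat (510.3 to 679.6) overlapped with WT control, but the single markers did not move alike. In WT, mean signals fell with heat for SHR (173.2 to 34.55) and WER (53.3 to 43.6). They rose for EXPA7 (172.2 to 222.1) and EXPA18 (219 to 294.7). In OE, the means of SHR, EXPA7 and EXPA18 fell with heat, and that of WER rose (50.65 to 62.5). The part of root tissue in the OE heat counts was not tested. RD heat gave 6 higher and 7 lower, against 5.41% and 9.41%. Among the 6 is AT3G01830, whose log2 difference of 4.38 lies wholly below a signal of 16. OE NaCl gave 16 higher and 8 lower, against 11.5% and 15%, and RD NaCl 15 higher and 7 lower, against 12% and 19.5%. Higher with heat in all 3 genotypes were 5 members (267083_at, AT1G21550, CML23, TCH2 and CML37), which is 6.58% of members against 4.15% of all tested probe sets. Lower in all 3 were AT1G73630 and 247115_at, against a background of 4.14%. Quantile normalization gave 7 higher and 8 lower for OE heat, and 10 higher and 4 lower for RD heat. Of the 5 shared rises AT1G21550, and of the 2 shared falls AT1G73630, held in every genotype when any 1 array was left out. The calls of 267083_at were lost in each genotype on leaving out some array (highest adjusted p = 0.0549 in WT, 0.232 in OE and 0.122 in RD), CML23 in OE (0.103), TCH2 in WT and OE (0.0624 and 0.228), CML37 in RD (0.126) and 247115_at in OE (0.0926). Among the calls lost after quantile normalization were 267083_at, 253622_at, 266520_at and 258945_at in OE heat (adjusted p = 0.0533, 0.059, 0.0529 and 0.0604) and 266520_at and CML42 in RD heat (0.0787 and 0.0688).

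NaCl gave the longer shared list. Higher in all 3 genotypes were 13 members: 267083_at, AT1G21550, AT1G76640, CML38, CML37, AT3G01830, AT1G18210, 255795_at, the ATPase 253702_at, and the calmodulin-binding AT2G18750, AT5G57580, 247426_at and 246821_at. That is 17.1% of members against 7.92% of all tested probe sets. Lower in all 3 were CAM7, CAM1, 266317_at, AT3G49050 and IQD19, 6.58% of members against a background of 10.3%. CAM7 had signals of 724.9 and 337.6 in OE NaCl and of 415.3 and 377.9 in RD NaCl, against 1342 to 1837 on the control arrays of these lines. CAM4 passed in WT, and its log2 differences in OE and RD were -0.97 and -1.05 (adjusted p = 0.162 and 0.117). None of the 6 calmodulins passed with heat in any genotype.

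Some members passed with heat in the transgenic lines and not in WT, with no test of the difference passed. In OE heat, 3 of 7 ion channels fell (253615_at 2.94-fold, 253622_at 3.55-fold and 266520_at 2.33-fold), as did 2 of 7 kinases (CPK6 2.22-fold and 258945_at 3.2-fold) and CML42 (3.92-fold, from 433.8 and 371.4 to 95.1 and 110.2, adjusted p = 0.00028). In RD heat, 253615_at, 266520_at, CML42 and the kinase 245156_at fell, by 3.02-fold, 2.19-fold, 2.12-fold and 3.61-fold. AT4G00500 rose 2.81-fold in OE heat, to 551.0 and 803.6 (adjusted p = 0.00488). AT5G37710 rose 3.62-fold in OE heat, to 901.8 and 1003, and reached 402.0 and 546.5 in RD heat, where its log2 difference from RD control was 0.55 (SE 0.25, adjusted p = 0.157). The difference between the RD and WT responses of AT5G37710 was -1.22 on the log2 scale (SE 0.35) and did not pass (adjusted p = 0.739). Without any 1 array, 6 of the 23 calls in OE heat held (CML42 and AT5G37710 among them, adjusted p at most 0.0304), and 17 were lost without at least 1 of the 4 arrays (highest adjusted p 0.0722 to 0.32). In RD heat 5 of 13 held (AT1G21550, CML23, AT1G73630, TCH2 and 247115_at), and 8 were lost (0.0556 to 0.214). In OE heat, 253615_at and AT4G00500 were lost without OE control 1 or OE heat 2, 253622_at also without OE control 2, CPK6 and 266520_at without OE control 1 or either heat array, and 258945_at without any 1 of the 4. In RD heat, 245156_at was lost without RD heat 1, 253615_at and 266520_at without RD control 1 or either heat array, and CML42 without any 1 of the 4. Of the NaCl calls 7 of 24 held in OE and 9 of 22 in RD when any 1 array was left out. Of the members shared by all 3 genotypes with NaCl, AT1G21550, AT1G76640, CML38, AT3G01830 and 247426_at held in each of them, and every other shared rise or fall was lost in at least 1 genotype on leaving out some array. With a block for the array series AT1G18210 and AT5G57580 did not pass in OE NaCl (adjusted p = 0.0865 and 0.0832).

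**Figure D4:**
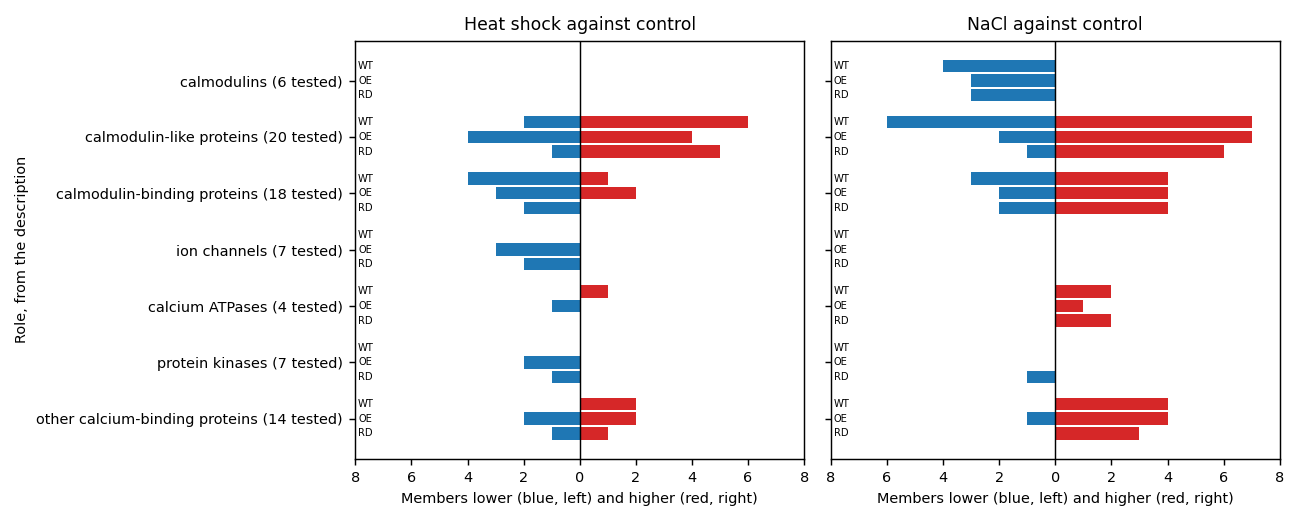
Number of tested members lower (blue, to the left) and higher (red, to the right) than the control of their genotype (horizontal axis), by role (vertical axis) and genotype, for heat shock and NaCl. Calmodulins have no bar with heat shock and bars to the left alone with NaCl, 4 in WT and 3 each in OE and RD.

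Genotypes were compared within each treatment to ask whether HSFA6b changes the level of these transcripts. Few members passed, and all of those that did involve RD. OE against WT gave 0 members in each treatment by limma's adjusted p, against backgrounds of 0.0173% in control, 0.115% with heat and 0% with NaCl. At an unadjusted p under 0.05 the counts were 3, 13 and 4 of 76. RD against WT gave 0 members in control and 0 with heat (4 and 9 at an unadjusted p under 0.05), against backgrounds of 0.046% and 0.207%. RD NaCl against WT NaCl gave 2 lower members, AT1G21550 and IQD19, against 0.409%, and the same 2 were lower than in OE NaCl, against 0.748%. IQD19 entered the rule by name with earlier results of these arrays known, so these counts cannot be weighed against their backgrounds. RD control against OE control gave AT1G21550 lower, against 0.213%, and CML37 higher, against 0.00575%. RD heat against OE heat gave 0 (6 at an unadjusted p under 0.05), against 0.846%.

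AT1G21550 was lowest in RD under each treatment. In control its signals were 43.7 and 39.7 in OE, 12.2 and 20.7 in WT and 4.8 and 3.4 in RD, and among these only the OE arrays were called Present. With NaCl they were 891.8 and 987.7 in OE, 193.0 and 610.7 in WT and 44.9 and 34.2 in RD, where neither array was called Present. With heat they were 7752 and 6443 in OE, 8913 and 15781 in WT and 3524 and 2884 in RD. In every treatment both RD arrays lie below all WT and OE arrays. That pattern held for 2 members, AT1G21550 and the ion channel 265544_at, and for 0.869% of all tested probe sets. OE lay above WT in control and with NaCl and below it with heat, and OE did not differ from WT by the test in any of them (adjusted p = 1, 1 and 0.494).

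RD NaCl was at least 8.76-fold below WT NaCl for AT1G21550 (log2 difference -3.13, SE 0.45, adjusted p = 0.00825) and at least 24-fold below OE NaCl (log2 difference -4.58, adjusted p = 0.000294). RD control was at least 4.89-fold below OE control (adjusted p = 0.00505). With heat the log2 difference between RD and WT was -1.90 (SE 0.45) and did not pass (adjusted p = 0.11). The rise with heat in RD was itself at least 374-fold (log2 difference 9.62, adjusted p = 4.95e-09). The difference between the RD and WT heat responses was 0.08 on the log2 scale (SE 0.63, adjusted p = 0.988), and between the NaCl responses -1.16 (SE 0.63, adjusted p = 1). RD NaCl against WT NaCl was lost without RD NaCl 2 (adjusted p = 0.055), and the RD control call was lost without OE control 1, OE control 2 or RD control 2 (highest 0.0695) and with a signal floor of 16 (0.391). RD NaCl against OE NaCl held without any 1 array.

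IQD19, a calmodulin-binding protein of the IQ-domain family, was near even across the genotypes except in RD with NaCl. Its control signals ran from 145.5 to 182.6 on all 6 arrays. With heat they were 67.2 and 107.0 in WT, 72.9 and 69.5 in OE and 65.1 and 64.1 in RD. With NaCl they were 66.6 and 65.9 in WT, 76.0 and 80.2 in OE and 5.0 and 6.2 in RD, where IQD19 was not called Present on either array. Both RD NaCl arrays lie below every other array of the series. IQD19 was at least 6.51-fold lower in RD NaCl than in WT NaCl (log2 difference -3.57, SE 0.30, adjusted p = 0.000235) and at least 7.67-fold lower than in OE NaCl (adjusted p = 8.88e-05).

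The response of IQD19 to NaCl was the only response difference that passed among the members, at 1 of 76 against 0.0173% of all tested probe sets in that direction. It was -3.62 on the log2 scale for RD against WT (SE 0.43, adjusted p = 0.0139). That call was lost without WT control 1, RD control 1, RD control 2 or WT NaCl 2 (highest adjusted p = 0.122), with a signal floor of 16 and with no filter on Present calls (highest 0.247). The other 3 response differences, OE heat, RD heat and OE NaCl against WT, gave 0 members by limma's adjusted p, against backgrounds of 0.0115%, 0.00575% and 0%, and 7, 8 and 1 members at an unadjusted p under 0.05. Since IQD19 was named in the rule with earlier results known, its pattern here is a description of those same arrays and adds no independent support.

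CML37 differed between RD and OE in the untreated seedlings. Its control signals were 5.7 and 1.7 in WT, 1.5 and 2.3 in OE and 23.4 and 19.9 in RD, of which 1 RD array was called Present. RD control was at least 2.72-fold above OE control (log2 difference 3.54, SE 0.59, adjusted p = 0.0286), and against WT control the log2 difference was 2.79 (SE 0.59, adjusted p = 0.215). All of these signals are dim, and with a signal floor of 16 the adjusted p was 1. The call was also lost without OE control 1, OE control 2, RD control 1 or RD control 2 (highest adjusted p = 0.27). With treatment the genotypes lie together, at 85.8 to 182.9 with heat and 48.6 to 128.7 with NaCl, and CML37 rose in all 3 genotypes with both.

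**Figure D5:**
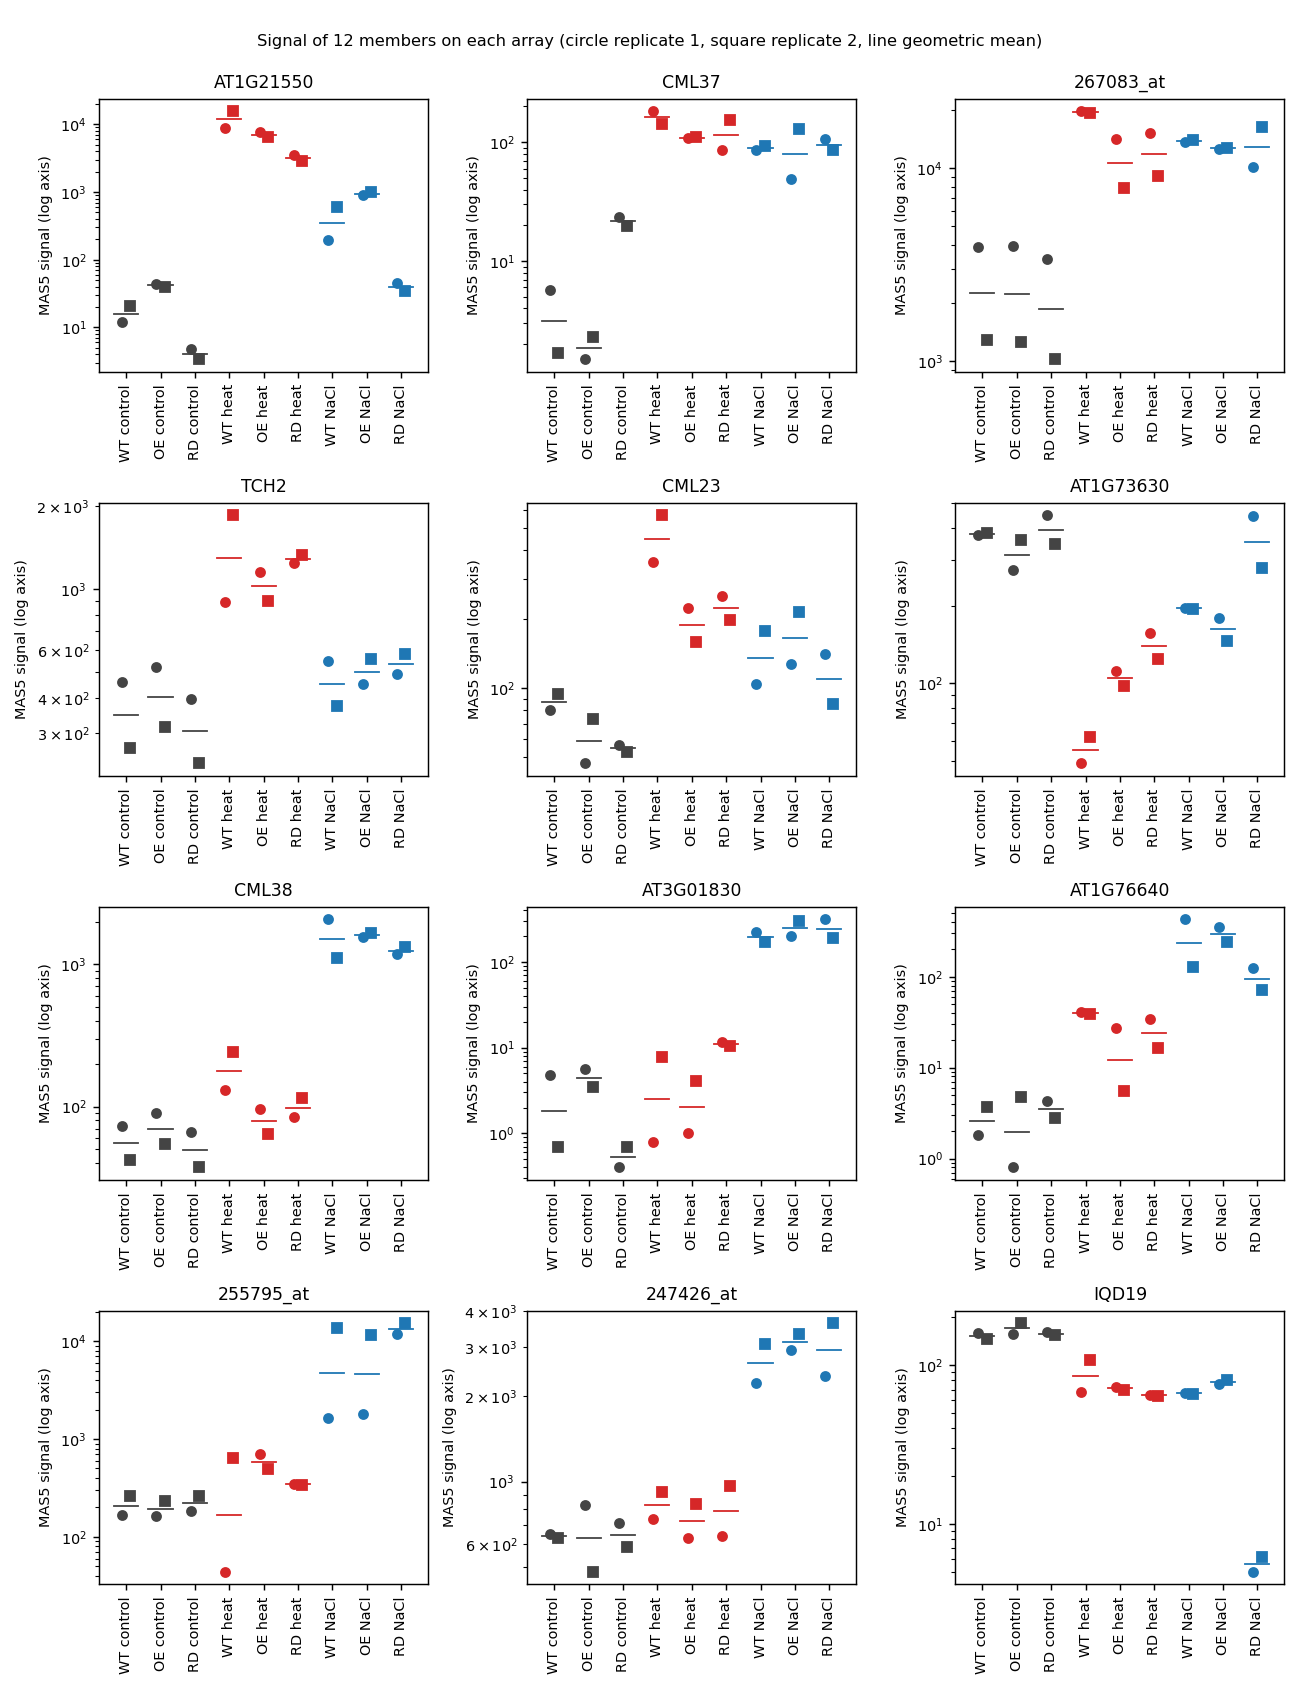
MAS5 signal (vertical axes, logarithmic) of 12 members on each array, by genotype and treatment (horizontal axes), with circles for replicate 1, squares for replicate 2 and lines for geometric means. AT1G21550 is lowest in RD under each treatment, and IQD19 drops to 5.0 and 6.2 in RD NaCl.

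Of the 76 tested members, 7 had both RD control arrays below all WT and OE control arrays and 3 above, against backgrounds of 11% and 9.6%. With heat there were 8 below and 9 above (9.27% and 10.5%), and with NaCl 8 below and 4 above (10.7% and 5.67%). As shares of the members these counts are close to or below their backgrounds. Among those counted, AT1G21550 and CML37 in control and AT1G21550 and IQD19 with NaCl passed a test between genotypes, and the others did not. CaBP-22, a calcium-binding protein, had control signals of 2620 and 1337 in WT, 2682 and 1588 in OE and 724.3 and 668.7 in RD, but its log2 difference between RD and WT was -1.43 with an SE of 0.77 and did not pass. AT1G73630 had 447.2 and 280.3 in RD NaCl, against 196.6 and 194.0 in WT NaCl and 179.7 and 146.5 in OE NaCl, with a log2 difference between RD and WT of 0.86 (SE 0.28, adjusted p = 0.423). Some cell type markers also differed in RD. The summed guard cell markers (KAT1 and FAMA) were lower in RD, at 220.1 to 320.5 in control and 132.9 to 179.3 with heat, against 551.5 to 690.3 and 315.1 to 399 in WT, and overlapped with NaCl. Most of that difference was in KAT1, with mean signals of 92.9 in RD and 394.4 in WT control and of 30.75 and 217.3 with heat. FAMA had 177.4 and 226.5 in control, 125.3 and 139.7 with heat and 386.4 and 370.6 with NaCl, in the same order. The summed vascular markers (SUC2, XCP1 and XCP2) were 2922 to 3278 in RD control and 4595 to 5884 in WT control. OE control, at 3963 to 4206, also lay below WT control. With heat they were 2662 to 3070 in RD and 3545 to 5079 in WT, and with NaCl RD and WT overlapped (2624 to 4357 and 3815 to 6186). The epidermis marker ATML1 lay the other way in control, at 1836 to 1975 in RD, 1238 to 1279 in WT and 1309 to 1603 in OE. All 6 were Present on all 18 arrays, and their part in the RD differences was not tested.

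The other genes of calcium signalling came from a list of 81 probe sets that are not members, of which 63 were tested. The list is incomplete: no probe set was matched by name for kinases that interact with calcineurin B-like proteins, the two-pore channel or CAMTA factors. In WT heat 8 rose and 8 fell, with backgrounds of 6.7% and 13.3%, and in WT NaCl 11 rose and 7 fell, with backgrounds of 12% and 18.3%. The median log2 differences were -0.23 and 0.12, and those of all tested probe sets -0.29 and -0.19. Calcineurin B-like protein 1 (245251_at), a calcium sensor of another family that works through its own kinases, had mean signals of 319.2 in WT control, 1004 in WT heat and 2675 in WT NaCl (log2 differences 1.61 and 3.06, adjusted p = 0.00145 and 8.12e-06). The exchanger AT5G17850, described as potassium-dependent and sodium-calcium, had 135, 467.9 and 1661 (log2 differences 1.78 and 3.62, adjusted p = 0.000815 and 2.31e-06). Of 5 probe sets whose description names calreticulin or calnexin, chaperones of the endoplasmic reticulum that bind calcium, 3 fell with NaCl and 1 rose. The probe set that rose, AT1G20030, is described as a putative calreticulin, and whether it is a chaperone of this kind was not checked. Its mean signals were 55.05 in WT control and 226 in WT NaCl. Of 24 probe sets outside the member list whose description names a calcium-dependent protein kinase or CDPK, 1 of which (246724_at) is described as a CDPK substrate, 3 rose and 3 fell with heat and 5 rose and 3 fell with NaCl. The 7 kinases of the member list gave no call in either WT comparison.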

How the data were processed

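Per the labels, the authors computed an intensity per probe set with MAS5, whose version is not stated, and they deposited a detection p-value and call beside it. The deposited intensity values were taken to log2 here, with a floor of 0.1. A deposited table of all arrays holds identical signals (largest difference 0). The filter kept 17379 probe sets with Present calls on each array of some group. A linear model (limma 3.58.1, R 4.3.3; lmFit and eBayes, trend on) took in all 18 arrays and 20 contrasts, leaving 9 residual degrees of freedom beside 4.76 of the prior, with Benjamini-Hochberg adjustment per contrast and a threshold of 0.05. Python 3.11.15, pandas 2.3.3, numpy 2.4.6 and matplotlib 3.10.9 did the rest, and the fit was tested on simulated data. That simulation drew independent noise on each array, so it cannot cover array series or shared deviations of replicates. Precision depends on the number of arrays, 2 per group, and for dim probe sets on background.

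The members and lists were chosen with earlier results of these data known, and the 7 roles after values were seen. Named were the tested calmodulins, TCH2 and IQD19, the 8 largest rises and 6 largest falls in each WT comparison with control, the 4 largest each way between WT heat and WT NaCl, and the members called between genotypes. The plan covered every tested member of the earlier, coarser calmodulin group (34 members). Here only the 6 calmodulins were named on that ground. Others named were chosen after their values were seen. Marker probe sets were matched by symbol or by name in the description, and matches to other genes were left out. No sequences or coordinates are given, because the values name no build. Alternatives were quantile normalization, a floor of 16, no filter or a stricter filter, no intensity trend, the array series as a block or the first series alone, a replicate block, and leaving out each array.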

Additional observations from a re-analysis of the deposited data

Results flagged for a closer look

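The response of IQD19 to NaCl differed between RD and WT by a test of the difference itself (log2 difference -3.62, adjusted p = 0.0139 by limma). IQD19 was named in the member rule with earlier results of these arrays known, so the test restates what chose it. The call was lost with a signal floor of 16, with no filter on Present calls, and on leaving out WT control 1, RD control 1, RD control 2 or WT NaCl 2 (highest adjusted p = 0.247 and 0.122 for the settings and the arrays). The NaCl arrays held 5.0 and 6.2 in RD and 66.6 and 65.9 in WT, and control arrays 160.3 and 153.9 in RD and 159.7 and 145.5 in WT. Groups of 2 arrays are too small for a test of a single outlying array.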

How the results depend on the processing

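Counts of called members stayed within 1.5 times the reported count under alternatives other than leaving out an array, except as follows. With the array series as a block, WT heat against control gave 25 members, OE heat against WT heat 1 and RD heat against WT heat 3. Quantile normalization gave 15 for OE heat against control and 1 for RD heat against WT heat. With the first array series alone, RD NaCl against control gave 34, and RD against WT in control, RD against WT with heat and RD against OE with heat gave 1 each. A floor of 16 gave 0 for RD control against OE control and 0 for the RD difference in NaCl response, which was also 0 with no filter. At that floor AT3G01830 in RD heat against RD control had a log2 difference of 0.00, so its reported 4.38 lies wholly below that signal. The cause of the other moves was not tested.

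Leaving out 1 array gave 8 to 19 members for WT heat, 13 to 29 for WT NaCl and 12 to 24 for WT heat against WT NaCl. The ranges were 9 to 13 for OE heat, 9 to 19 for OE NaCl, 6 to 9 for RD heat and 13 to 18 for RD NaCl. They were 0 to 1 for RD control against OE control, 0 to 2 for OE heat against WT heat, 0 to 1 for RD heat against WT heat, 1 to 2 for RD NaCl against WT NaCl and 0 to 1 for the RD difference in NaCl response. With 1 array left in a group, that array is assumed to vary like the other groups.

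Of 151 treatment calls, 129 were kept after quantile normalization, 148 at a floor of 16, 141 with no filter, 140 with no intensity trend, 146 with the array series as a block, 143 in the first series alone and 151 with the replicate block. The stricter filter kept all of the 148 it could test. Samples with the same number deviated together between genotypes in control (correlations of 0.3 to 0.4) and with NaCl (0.291 to 0.627). With heat the correlations were -0.0549 to 0.122. Over all pairs of groups the correlation was over 0.1 in 11 of 36 (-0.0762 to 0.627). The highest was between WT NaCl and OE NaCl, whose replicate 1 arrays are both of the second series. The model did not pair the samples. The replicate block is a single term over all treatments, so it cannot test a pairing within a treatment. Signals near background limit what can be read from dim members.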

Other observations

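Replicate 1 of the controls was over 2-fold above replicate 2 in all 3 genotypes for 267083_at and AT4G31000, as for 0.547% of all tested probe sets. In AT4G31000, a putative calmodulin-binding protein, the signals were 324.1 and 99.3 in WT, 318.5 and 109.1 in OE and 326.3 and 124.1 in RD. No member showed the opposite pattern, which 0.247% of all tested probe sets did.

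With NaCl, WT and OE each had 1 array in each series. The second-series array was over 2-fold above the other in both genotypes for CaBP-22, CAM7 and CAM1 (4.56% of all tested probe sets) and over 2-fold below it for 255795_at, AT5G39670 and 246821_at (3.6%). CaBP-22 had 1120 and 171.8 in WT NaCl and 949.9 and 192.4 in OE NaCl, while RD NaCl, with both arrays in the first series, had 180.4 and 184.5. AT5G39670, like a calcium-binding protein of Lotus japonicus, had 51.0 and 183.0 in WT NaCl and 60.4 and 188.5 in OE NaCl. The patterns were chosen after the values were seen, and their cause was not tested.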
